A study of Mus musculus with 8 samples.

Results

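The genes described here are 10 genes of glucose uptake and glycolysis, Slc2a1, Slc2a3, Hk2, Gpi1, Pfkp, Tpi1, Pgk1, Pgam1, Pkm and Ldha, which were matched by symbol among the 27179 genes of the deposited expression table. RNA sequencing covered splenic CD4+ T cells of C.Cg-Foxp3tm2Tch/J mice aged 8 weeks, a strain that carries a reporter at the Foxp3 locus. Control offspring descended from parents on unspiked water, and Cd offspring from parents given 10 ppm CdCl2 in their drinking water before and during mating and through pregnancy. Cells of each kind of offspring were lysed at once (unstimulated, 0 h) or cultured for 16 h with anti-CD3/CD28 beads (stimulated). Each of the 4 groups held 2 libraries, replicates 6 and 7. The CD4+ T cells were enriched by negative selection and sorted, and the study also names them CD4+CD25- conventional T cells, while the labels name CD4+ T cells alone. The offspring of both kinds were on unspiked water from soon after birth. Neither the sex of the mice nor whether libraries of the same number came from 1 animal is given in the sources used here, and the p-values measure the spread between these libraries, which may be technical. Unstimulated cells were not cultured, so the beads and the 16 h of culture cannot be told apart.

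Glycolysis turns 1 glucose into pyruvate in the cytosol. Facilitative transporters of the Slc2a family bring glucose in, a hexokinase traps it as glucose 6-phosphate, phosphofructokinase commits it to the pathway, and later enzymes recover ATP and yield pyruvate, which lactate dehydrogenase can reduce to lactate. Resting T cells are known for a low rate of glycolysis, and T cells activated through CD3 and CD28 for a high one. RNA levels do not measure that rate.

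After stimulation, 8 of the 10 genes (7 of 9 without Hk2) were higher and Slc2a3 was lower in both control and Cd offspring at an adjusted p under 0.01 in limma, while Slc2a1 did not pass. For Gpi1 in control offspring this depended on the fit. Of all 12605 genes tested, 29.9% were higher and 21.8% lower by that rule in control offspring, and 30.2% and 22.3% in Cd offspring. Hk2, which makes hexokinase 2, stood at 0.149 to 0.300 RPKM in the unstimulated libraries and at 15.2 to 17.4 RPKM in the stimulated ones. Tpi1 rose 4.12-fold and Pgam1 3.51-fold in control offspring. The summed level of the 10 genes was 505 ± 11.1 RPKM (SD, n = 2) in unstimulated and 999.5 ± 4.97 in stimulated cells of control offspring, and 499.6 ± 1.92 and 977 ± 26.1 RPKM in Cd offspring. Between Cd and control offspring, Pgk1 in unstimulated cells was the only gene of the 10 that passed the test, at an adjusted p of 0.0488, beside 0.896% of all genes tested, and that call was lost in 17 of 18 alternative fits. RPKM are reads scaled by transcript length and library total, and are relative to the library, so a change in the RNA content of a cell does not show in them, and fewer cells of a type and less RNA per cell cannot be told apart.

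The libraries held 15542732 to 25486791 reads counted on genes, and the 2 libraries of a group correlated at 0.983 to 0.9897 over the genes tested (Pearson's r of their log2 values, across genes, which are not independent replicates). Cd3e stood at 306 to 464 and Cd4 at 212 to 315 RPKM, Cd8a at no more than 0.160 RPKM and Cd8b1 at 9.40 to 11.7 RPKM, in all 8 libraries. The B cell genes Ms4a1 and Ebf1, the neutrophil genes S100a8 and S100a9 and the globin genes Hba-a1 and Hba-a2 were listed at 0 in all 8 libraries. The summed level of 5 NK cell markers was 28.3 to 34.2 RPKM in unstimulated and 9.50 to 11.0 RPKM in stimulated libraries, with Ncr1 at 0 in 7 of 8. Most of it came from Klrd1 (13.6 to 15.8 and 4.63 to 5.30 RPKM) and Nkg7 (10.6 to 12.9 and 3.80 to 6.01 RPKM). Klrb1c stood at 3.15 to 4.35 and 0.147 to 0.293 RPKM. For 7 B cell markers the summed level was 5.77 to 6.91 and 14.0 to 16.2 RPKM, most of it from Cd74 and Cd79a. For 8 myeloid markers it was 6.24 to 7.90 and 3.21 to 4.31 RPKM, most of it from Cd68 and Itgam. Cd68 held 4.25 to 5.77 and 2.74 to 3.79 RPKM, and Itgam 1.56 to 1.85 and 0.251 to 0.398 RPKM. Summed over 6 erythroid markers, the level was 0.517 to 1.83 and 1.25 to 1.58 RPKM, most of it from Alas2. For 10 T cell markers it was 2517 to 2679 and 1868 to 1957 RPKM. The 5 regulatory T cell markers summed to 42.5 to 52.8 and 331 to 370.2 RPKM, of which Il2ra and Tnfrsf18, which activated T cells also express, made up most, while Foxp3 stood at 4.48 to 7.69 RPKM. Il2ra, which encodes CD25, stood at 1.80 to 2.19 RPKM in unstimulated and 94.0 to 117 RPKM in stimulated libraries. The part of these lists in the changes below was not tested.

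Promoter windows of RefSeq (GRCm38.p6, the 250 bases before a gene's start and the 50 after it) were given for 9 of the 10 genes, in 11 windows. They were searched on both strands for ACGTG and CACGTG, since Hif1a and Myc are known regulators of this pathway. ACGTG is a form of the core of the sequence known to bind hypoxia-inducible factors, and other forms were not searched. CACGTG is the E-box known to bind Myc with Max. A CACGTG holds ACGTG on both strands and so counts as 2 matches of the shorter motif. ACGTG was found in 6 of the 11 windows, 1 each of Slc2a1, Hk2, Pgk1, Pgam1, Pkm and Ldha, and in 19.6% of all 32851 windows of that length. CACGTG was found in 1 of the 11, the first of Ldha, and in 7.15% of all windows. The first window of Ldha held the most, with 5 matches of ACGTG, 4 of them in 2 CACGTG. Gpi1, Pfkp and Tpi1 had no match of ACGTG or CACGTG in these windows, and a match is a description of letters, not of binding. The GC content of the 11 windows was 56.7% to 67.3%, against a median of 52.7% over all windows, and its part in the matches was not tested. Below are the 250 bases before the start of the 2 genes with a match that rose by the largest factor in control offspring (Hk2 and Pgam1), of Ldha, which held both motifs, and of Slc2a1, whose level did not pass the test. They are written 5′ to 3′ on the strand of the gene, with each ACGTG, on either strand, in capitals. They lie at chr6:82774455-82774704 on the minus strand (Hk2), chr19:41911621-41911870 on the plus strand (Pgam1), chr7:46845554-46845803 on the plus strand (Ldha) and chr4:119108495-119108744 on the plus strand (Slc2a1).
Hk2: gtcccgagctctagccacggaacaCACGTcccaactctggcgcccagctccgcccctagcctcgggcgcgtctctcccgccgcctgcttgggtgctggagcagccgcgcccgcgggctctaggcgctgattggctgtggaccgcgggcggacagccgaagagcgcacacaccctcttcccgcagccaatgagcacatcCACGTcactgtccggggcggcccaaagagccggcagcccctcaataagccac
Pgam1: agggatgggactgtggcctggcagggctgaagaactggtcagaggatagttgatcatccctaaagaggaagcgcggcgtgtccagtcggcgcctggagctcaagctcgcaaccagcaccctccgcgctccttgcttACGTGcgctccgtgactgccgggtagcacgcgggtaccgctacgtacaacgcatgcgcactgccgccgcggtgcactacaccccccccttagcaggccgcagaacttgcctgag
Ldha: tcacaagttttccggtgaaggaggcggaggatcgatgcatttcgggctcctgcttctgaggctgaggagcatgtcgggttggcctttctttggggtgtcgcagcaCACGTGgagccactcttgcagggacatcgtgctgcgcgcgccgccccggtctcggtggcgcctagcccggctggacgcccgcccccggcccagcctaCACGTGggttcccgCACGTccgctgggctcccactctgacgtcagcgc
Slc2a1: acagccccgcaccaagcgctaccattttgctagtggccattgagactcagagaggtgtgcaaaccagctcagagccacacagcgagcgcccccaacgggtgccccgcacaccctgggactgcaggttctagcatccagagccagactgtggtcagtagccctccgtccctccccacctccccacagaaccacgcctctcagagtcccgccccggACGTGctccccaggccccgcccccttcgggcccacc

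**Figure D1:**
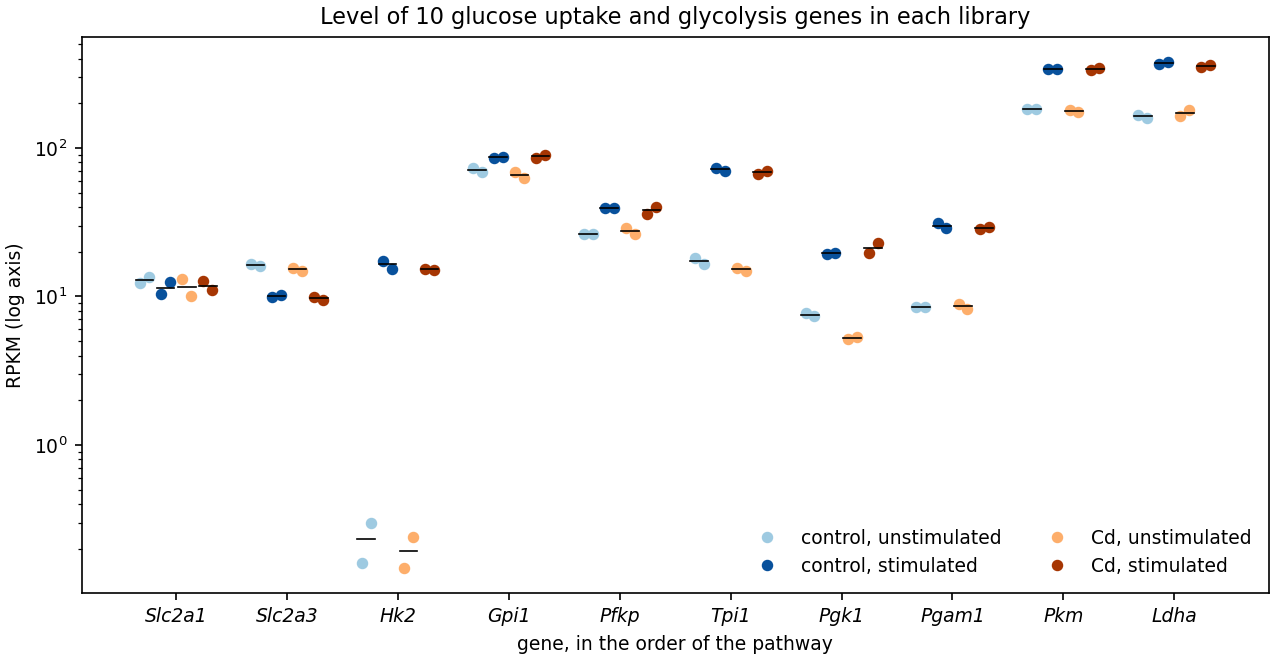
Level of the 10 genes in each of the 8 libraries, in RPKM on a log axis, with the genes in pathway order; each point is 1 library and each short line the mean of the 2 libraries of a group. Hk2 lies at 0.149 to 0.300 RPKM in the 4 unstimulated libraries and at 15.2 to 17.4 in the 4 stimulated ones, while the 4 groups of Slc2a1 overlap.

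The first step is the entry of glucose. Slc2a1 (chromosome 4, 119108745 to 119137330, GRCm38.p6), which encodes GLUT1, stood at 12.3 and 13.5 RPKM in unstimulated and 10.4 and 12.4 RPKM in stimulated cells of control offspring, and at 13.1 and 10.0 and at 12.7 and 11.0 RPKM in the same cells of Cd offspring. All 4 groups overlapped. The log2 difference with stimulation was -0.18 (95% interval -0.52 to 0.17, adjusted p = 0.325) in control and 0.04 (-0.30 to 0.39, adjusted p = 0.819) in Cd offspring, so a doubling lay outside both intervals. Slc2a3 (chromosome 6, 122727809 to 122802363), which encodes GLUT3, a transporter with a high affinity for glucose, stood at 16.6 and 15.9 RPKM in unstimulated and 9.96 and 10.2 RPKM in stimulated cells of control offspring. Cd offspring had levels of 15.7 and 14.8 and at 9.96 and 9.42 RPKM. Every stimulated library was below every unstimulated one. Slc2a3 fell by 0.69 on the log2 scale (SE 0.066, adjusted p = 6.27e-05) in control and by 0.65 (SE 0.066, adjusted p = 8.86e-05) in Cd offspring, less than 2-fold. Slc2a1 took 44.2% ± 2.46 (SD, n = 2) of the summed RPKM of both genes in unstimulated and 53.1% ± 2.71 in stimulated cells of control offspring, and 43.0% ± 3.70 and 54.9% ± 1.55 in Cd offspring.

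Hexokinase phosphorylates the glucose that has entered. Hk2 (chromosome 6, 82725025 to 82774454) stood at 0.161 and 0.300 RPKM in unstimulated and at 17.4 and 15.4 RPKM in stimulated cells of control offspring, from 16, 27, 1494 and 1651 reads. The 4 Cd libraries held 0.149 and 0.238 and at 15.3 and 15.2 RPKM, from 16, 27, 1854 and 2129 reads. The stimulated and unstimulated libraries lay far apart, and the libraries of control and Cd offspring lay close together within each state. The log2 fold change was 5.67 (SE 0.24, adjusted p = 1.14e-06) in control and 5.72 (SE 0.24, adjusted p = 1.20e-06) in Cd offspring. These are on the scale of log2(RPKM + 0.1), and the size depends on that constant: it was 3.82 and 3.77 with a constant of 1, and 6.20 and 6.29 in limma voom on the recovered reads. Hk2 entered the test only through its stimulated libraries, so it had to differ, and counts over the 10 genes are given with and without it. Hk1, the hexokinase that most tissues express, measured 35.9 ± 1.78 RPKM (SD, n = 2) before and 34.0 ± 1.62 RPKM after stimulation in control offspring (log2 difference -0.08, SE 0.060, adjusted p = 0.282). Hk3 reached no more than 0.441 RPKM in any library and was not tested. Hk2 took 0.640% ± 0.298 of the summed RPKM of the 3 hexokinase genes in unstimulated and 32.5% ± 3.06 in stimulated control cells. Cd offspring had shares of 0.533% ± 0.188 and 31.4% ± 0.678.

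The next enzymes rearrange the sugar phosphate and add the other phosphate group. Gpi1 (chromosome 7, 34201327 to 34230336), glucose 6-phosphate isomerase, stood at 73.3 and 68.3 RPKM in unstimulated and 85.6 and 87.4 RPKM in stimulated cells of control offspring. The levels in Cd offspring were 68.6 and 62.6 and at 85.9 and 89.7 RPKM. It was higher in every stimulated library than in any unstimulated one, with log2 fold changes of 0.29 (SE 0.061, adjusted p = 0.00414) in control and 0.42 (SE 0.061, adjusted p = 5.99e-04) in Cd offspring. The first value was over an adjusted p of 0.01 in limma with median-of-ratios scaling (0.21) and quantile scaling (0.21). It was also over 0.01 with a block by exposure and replicate number together, and with no trend. Without unstimulated control replicate 7 the value was 0.24, and without either stimulated control replicate it was 0.30 and 0.27. Pfkp (chromosome 13, 6579874 to 6649060), the platelet isoform of phosphofructokinase, stood at 26.5 and 26.5 RPKM in unstimulated and 39.5 and 39.1 RPKM in stimulated cells of control offspring, and at 28.9 and 26.2 and at 36.0 and 39.98 RPKM in Cd offspring. Its libraries also separated by stimulation, with log2 fold changes of 0.57 (SE 0.069, adjusted p = 2.26e-04) and 0.46 (SE 0.069, adjusted p = 6.99e-04). Pfkl, the liver isoform, rose by 0.51 and 0.47 (adjusted p = 0.00482 and 0.00745), and Pfkm, the muscle isoform, had values of 0.14 and 0.41 (adjusted p = 0.145 and 0.00265). The share of Pfkp in the summed RPKM of the 3 isoforms stood between 49.9% and 52.5% in the means of the 4 groups. Pfkp overlaps Pitrm1 in the annotation, and the strand setting of the counting is not given in the sources used here, so reads of the overlap cannot be told apart.

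The later enzymes act on the 3-carbon sugars. Tpi1 (chromosome 6, 124810586 to 124814158), triose phosphate isomerase, stood at 18.2 and 16.5 RPKM in unstimulated and 72.9 and 70.3 RPKM in stimulated cells of control offspring. Cd libraries held it at 15.6 and 14.8 and at 66.9 and 70.4 RPKM. The log2 fold change was 2.04 (SE 0.064, adjusted p = 4.49e-07) in control and 2.17 (SE 0.064, adjusted p = 3.83e-07) in Cd offspring, next to that of Hk2 among the 10 genes. Tpi1 overlaps Spsb2 in the annotation. Pgk1 (chromosome X, 106187100 to 106203699), phosphoglycerate kinase 1, which makes the first ATP of the pathway, stood at 7.75 and 7.36 RPKM in unstimulated and 19.3 and 19.7 RPKM in stimulated cells of control offspring. The same libraries of Cd offspring held 5.18 and 5.30 and at 19.5 and 22.9 RPKM. It rose by 1.36 (SE 0.086, adjusted p = 7.21e-06) in control and by 1.99 (SE 0.086, adjusted p = 1.44e-06) in Cd offspring on the log2 scale. Pgam1 (chromosome 19, 41911871 to 41918665), phosphoglycerate mutase 1, stood at 8.47 and 8.47 RPKM in unstimulated and 31.2 and 28.9 RPKM in stimulated cells of control offspring, and at 8.94 and 8.24 and at 28.4 and 29.4 RPKM in Cd offspring. Its log2 fold changes were 1.81 (SE 0.067, adjusted p = 7.67e-07) and 1.74 (SE 0.067, adjusted p = 1.01e-06). For all 3 genes the stimulated libraries lay above the unstimulated ones without overlap.

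Some of these genes have near-identical copies elsewhere in the genome, and how reads with several matches were counted is not given in the sources used here. Of the 100-base windows of the transcript, 67.0% were found in another annotated gene for Pgk1, 39.7% for Pgam1, 9.82% for Pkm, 4.92% for Gpi1, 1.28% for Ldha and 0.796% for Tpi1, and none for Slc2a1, Slc2a3, Hk2 and Pfkp. By this measure alone, the levels of Pgk1 and Pgam1 are less certain than those of the other 8 genes. Slc2a1, Slc2a3, Pkm and Ldha also overlap other genes in the annotation, as Pfkp and Tpi1 do.

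The end of the pathway held the highest levels. Pkm (chromosome 9, 59656576 to 59679372), the pyruvate kinase of most tissues, stood at 182 and 182 RPKM in unstimulated and 341 and 341 RPKM in stimulated cells of control offspring. Its levels in Cd offspring were 179.7 and 176 and at 334 and 345 RPKM. The table is by gene, so the 2 splice forms of Pkm, M1 and M2, were not separated. The log2 fold change was 0.91 (SE 0.044, adjusted p = 2.19e-06) in control and 0.93 (SE 0.044, adjusted p = 2.04e-06) in Cd offspring, just under 2-fold in both. Ldha (chromosome 7, 46842274 to 46855627), the lactate dehydrogenase subunit that dominates in muscle, stood at 168 and 158 RPKM in unstimulated and 369 and 379 RPKM in stimulated cells of control offspring, and at 165 and 180.3 and at 349.6 and 363 RPKM in Cd offspring. It rose by 1.20 (SE 0.060, adjusted p = 2.51e-06) and by 1.05 (SE 0.060, adjusted p = 4.87e-06) on the log2 scale. The second value is close to the 2-fold limit, and it was 0.98 without unstimulated Cd replicate 6 and 0.99 with median-of-ratios scaling. Ldhb, the subunit that dominates in heart, stood at 12.2 ± 0.654 and 12.2 ± 1.99 RPKM (SD, n = 2) in unstimulated and stimulated cells of control offspring. Ldha took 93.0% ± 0.0730 of the summed RPKM of both subunits before and 96.8% ± 0.557 after stimulation in control offspring, and 94.2% ± 0.926 and 96.6% ± 0.166 in Cd offspring.

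**Figure D2:**
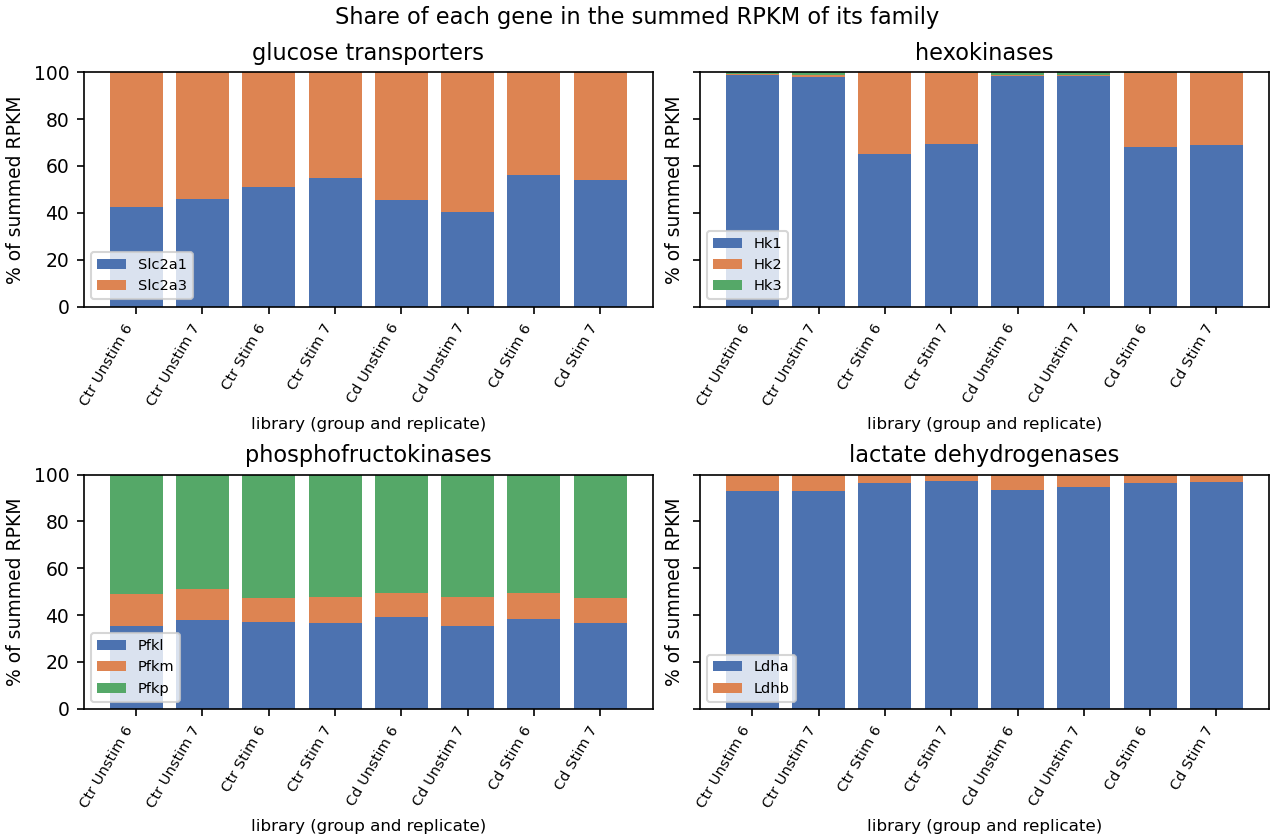
Share of each gene in the summed RPKM of its family, in percent, for each of the 8 libraries, in 4 families. Hk2 takes a mean of 0.640% and 0.533% of the hexokinase RPKM in unstimulated and of 32.5% and 31.4% in stimulated cells of control and Cd offspring, while Pfkp and Ldha keep the largest share of their families in every library.

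By level, Pkm, Ldha and Gpi1 were the highest 3 of the 10 genes in each group, and the order changed within and below them. In unstimulated cells of control offspring the order was Pkm, Ldha, Gpi1, Pfkp, Tpi1, Slc2a3, Slc2a1, Pgam1, Pgk1 and Hk2, and only the neighbours Tpi1 and Slc2a3 overlapped. In stimulated cells it was Ldha, Pkm, Gpi1, Tpi1, Pfkp, Pgam1, Pgk1, Hk2, Slc2a1 and Slc2a3 in both kinds of offspring, with no overlap between neighbours. Both transporters had moved below all 8 enzymes. In unstimulated cells of Cd offspring the order was that of control offspring except that Slc2a3 and Tpi1 had traded places at 15.2 RPKM each, and Pkm overlapped Ldha as Slc2a3 did Tpi1. Pkm and Ldha together took 68.2% to 71.7% of the summed RPKM in every library, and the 10 genes 0.122% to 0.127% of the reads of an unstimulated and 0.228% to 0.238% of those of a stimulated library.

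As a group, 5 of the 10 genes (Hk2, Tpi1, Pgk1, Pgam1 and Ldha) passed an adjusted p under 0.01 with more than 2-fold higher levels in limma in stimulated cells of control offspring, beside 11.5% of all 12605 genes tested that were called higher by the same rule. In Cd offspring the same 5 genes passed, beside 11.4% of all genes. Without Hk2 this was 4 of 9. At an adjusted p under 0.01 with no limit on the fold, 8 of 10 were higher and 1 lower in both kinds of offspring, or 7 of 9 and 1 of 9 without Hk2. For the 10 genes the median log2 change was 1.05 in control offspring (0.91 without Hk2), against 0.070 over all genes tested, and 0.99 in Cd offspring (0.93 without Hk2), against 0.050. The 4 stimulated and 4 unstimulated libraries did not overlap for 9 of the 10 genes, 8 of them higher and 1 lower (without Hk2, 8 of 9, 7 of them higher), beside 67.9% of all genes tested in either direction, 38.0% higher and 30.0% lower.

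**Figure D3:**
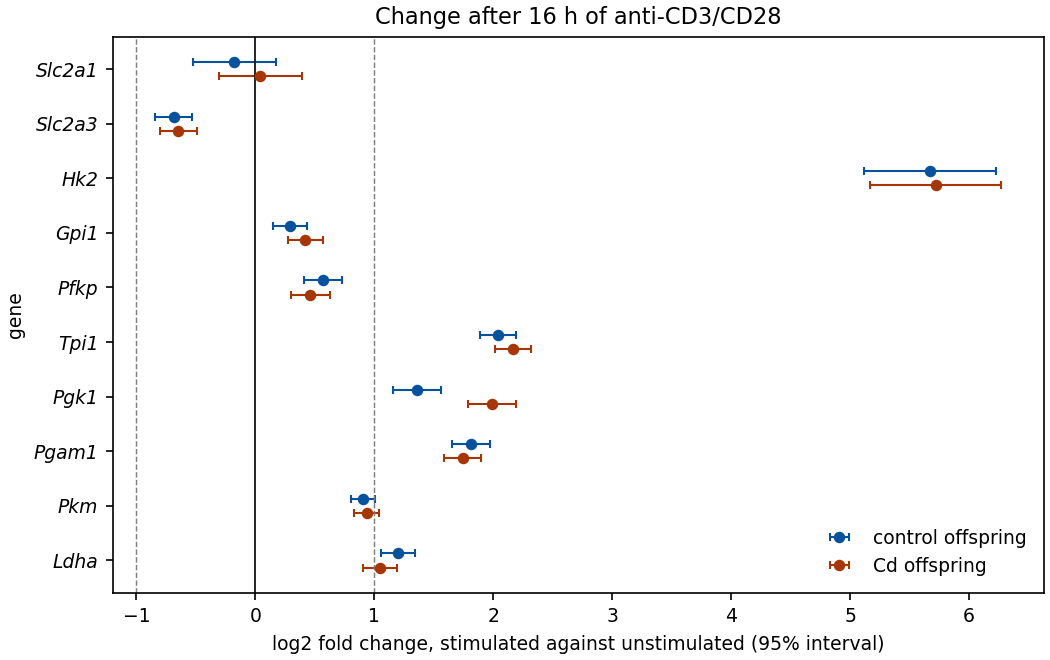
Log2 fold change of the 10 genes in stimulated against unstimulated cells, on the scale of log2(RPKM + 0.1), in control (blue) and Cd (brown) offspring, with the 95% interval from limma; dashed lines mark 2-fold. Hk2 lies at 5.67 and 5.72, Slc2a3 at -0.69 and -0.65, and the intervals of Slc2a1 cross 0.

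The rest of the pathway was read from lists of other genes. Of 23 other glycolytic enzyme genes, 15 were tested, and 3 were called higher and 0 lower in control offspring, namely Aldoa, Eno3 and Eno2, beside 11.5% of all genes tested called higher and 7.17% lower by that rule, the shares to set beside each list below. Aldoa, the main aldolase of muscle and blood cells, rose from 146 ± 6.82 to 309 ± 6.76 RPKM (SD, n = 2) (log2 change 1.09, SE 0.055, adjusted p = 2.64e-06). Eno3, the muscle enolase, rose from 7.23 ± 0.340 to 22.8 ± 0.538 RPKM (1.64, SE 0.11, adjusted p = 8.43e-06), and Eno2, the enolase of neurons, from 0.470 ± 0.127 to 2.01 ± 0.00536 RPKM (1.91, SE 0.25, adjusted p = 3.14e-04). Eno2 passed the filter only through its stimulated libraries, as Hk2 did, and without it 2 of 14 genes were called. Eno1, the common enolase, stood at 47.9 ± 0.731 and 58.5 ± 1.27 RPKM (0.29, SE 0.058, adjusted p = 0.00316). Aldoc was at 1.09 and 1.74 RPKM (adjusted p = 0.0492). Gapdh was lower, at 16.7 ± 0.411 and 9.79 ± 0.923 RPKM (-0.77, SE 0.11, adjusted p = 4.73e-04), and its level in this table is uncertain, since 85.8% of its 100-base windows were found in another annotated gene and 163 other genes matched it at 90% identity over 500 bases or more. For Eno1 the share of such windows was 43.6%, so its level is uncertain too. Its copy Eno1b, named after its values were seen, stood at 29.0 ± 1.29 and 33.7 ± 4.28 RPKM. How reads were split between Eno1 and Eno1b is not known.

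**Figure D4:**
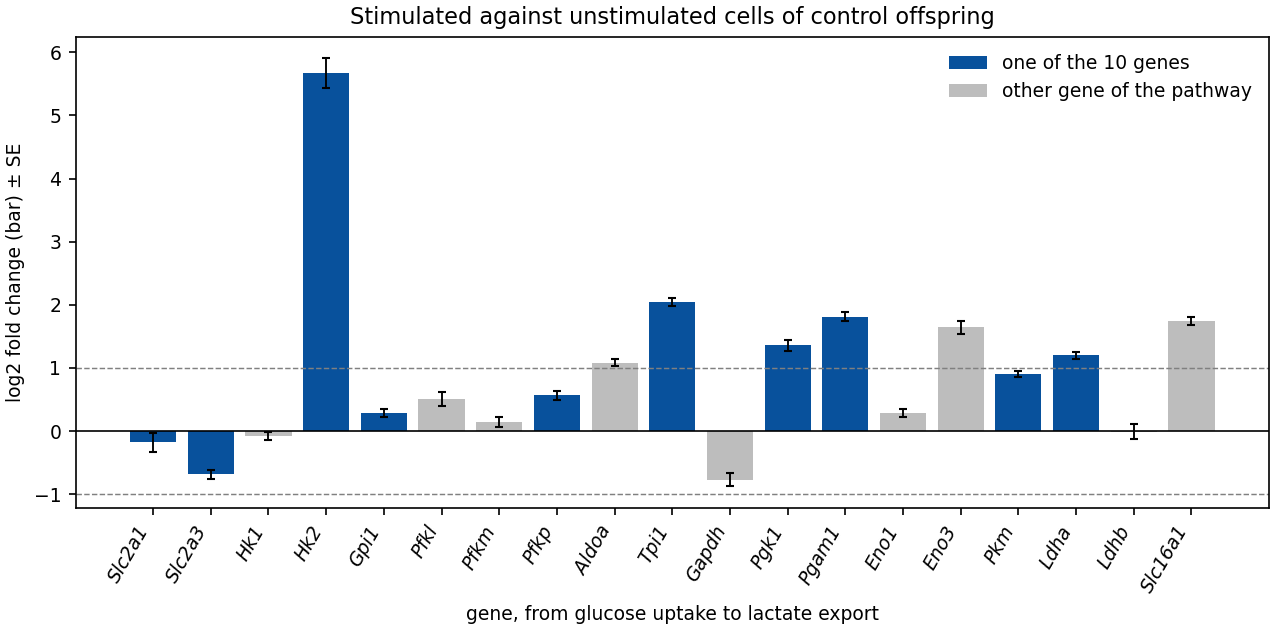
Log2 fold change in stimulated against unstimulated cells of control offspring for the 10 genes (blue) and 9 other genes of the pathway (grey), from glucose uptake to lactate export; bars show the value from limma, whiskers the SE, and dashed lines 2-fold. Hk2, Aldoa, Tpi1, Pgk1, Pgam1, Eno3, Ldha and Slc16a1 lie above 2-fold, Gapdh and Slc2a3 are the lowest, and Hk1 and Ldhb lie near 0.

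Among 16 other genes of glucose and lactate transport, of which 8 were tested, 2 were called higher and 1 lower in control offspring. Slc16a1, which encodes the lactate transporter MCT1, rose from 12.1 ± 0.374 to 40.7 ± 2.46 RPKM (SD, n = 2; log2 fold change 1.74, SE 0.066, adjusted p = 8.00e-07). Slc16a3, which encodes MCT4 and was named after its values were seen, stood at 1.25 ± 0.215 and 2.90 ± 0.00224 RPKM (1.16, SE 0.15, adjusted p = 3.43e-04). Emb, a partner protein of lactate transporters, fell from 114 ± 1.26 to 42.9 ± 2.58 RPKM (-1.40, SE 0.051, adjusted p = 7.18e-07 in limma). Bsg, another gene of this list, was named after its values were seen and went the other way. It stood at 45.9 ± 2.41 and 72.2 ± 1.75 RPKM (0.65, SE 0.061, adjusted p = 5.29e-05 in limma), under 2-fold and so not called.

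Of 26 regulators of glycolytic flux, 24 were tested, and 2 were called higher and 2 lower. Myc rose from 34.1 ± 2.50 to 192 ± 7.97 RPKM (SD, n = 2; log2 fold change 2.49, SE 0.11, adjusted p = 1.44e-06) and Hif1a from 30.9 ± 2.01 to 81.0 ± 4.58 RPKM (1.39, SE 0.11, adjusted p = 1.81e-05). Txnip, which is known to restrain glucose uptake by drawing GLUT1 from the cell surface, fell from 308 ± 5.85 to 70.6 ± 1.86 RPKM (-2.12, SE 0.061, adjusted p = 3.64e-07). Epas1, a relative of Hif1a that was named after its values were seen, stood at 6.45 ± 0.618 and 0.805 ± 0.0164 RPKM (-2.85, SE 0.15, adjusted p = 3.01e-06). In Cd offspring the changes were 2.39 for Myc, 1.09 for Hif1a, -1.77 for Txnip and -2.73 for Epas1, all called.

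The routes that leave the pathway were also read in control offspring. Of 13 genes tested for the entry of pyruvate into mitochondria, Dlat, a subunit of pyruvate dehydrogenase, and Pdk3, a kinase that inhibits that enzyme, were called higher at log2 fold changes of 1.11 each, and Pdk1, another such kinase, was called lower at -1.27 (96.1 to 39.8 RPKM, adjusted p = 9.30e-07). In Cd offspring Pdk1 was called (-1.19), while Dlat and Pdk3 had values of 0.81 and 0.84. Of 10 genes of the pentose phosphate pathway, Tkt, transketolase, was called higher (48.3 to 135 RPKM, 1.48, adjusted p = 5.33e-07), and Shpk and Tktl1, which lie under the level set for naming and were named after their values were seen, were called lower at -1.28 and -1.93. Tktl1 passed the filter only through its unstimulated libraries and so had to differ. Of 16 genes of the citric acid cycle, 2 were called higher and 0 lower, beside 11.5% and 7.17% of all genes tested. They were Fh1, fumarase (1.36), and Idh3a, a subunit of isocitrate dehydrogenase (1.32). At an adjusted p under 0.01 in limma with no limit on the fold, 12 were higher and 0 lower, beside 29.9% and 21.8%. For the other lists those counts were 6 and 1 of 15 (glycolytic enzymes) and 3 and 2 of 8 (transporters). They were 10 and 6 of 24 (regulators) and 5 and 2 of 13 (pyruvate entry). For the pentose phosphate pathway they were 5 and 3 of 10, and for gluconeogenesis and glycogen 2 and 2 of 11. Of 11 genes tested for gluconeogenesis and glycogen, G6pc3, a glucose 6-phosphatase, was called higher (1.13) and Pygm, muscle glycogen phosphorylase, lower (-1.02). Of the 97 genes of these lists that were tested, 0 were called in limma between Cd and control offspring in either state or in the difference of their responses, beside 0.896%, 0% and 0.357% of all genes tested, with 15 (unstimulated), 1 (stimulated) and 7 (difference) at an unadjusted p under 0.05, beside 13.9%, 3.28% and 10.6%. In limma voom on the recovered reads the counts called were 2, 0 and 0. Of all 12605 genes tested, that fit called 61 higher and 150 lower in unstimulated cells and 0 in stimulated cells. For the difference it called 101 higher and 10 lower. The 2 in unstimulated cells were Txnip and Slc2a9, a transporter named after its values were seen. Txnip stood at 257 and 264 RPKM in unstimulated cells of Cd and 312 and 304 RPKM in those of control offspring, with no overlap (log2 difference -0.24, SE 0.061, adjusted p = 0.166 in limma).

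Exposure was compared within each state of the cells. In unstimulated cells, Pgk1 was the 1 gene of 10 called in limma, at an adjusted p under 0.05, beside 0.896% of all genes tested, or 0.762% called lower. Both Cd libraries, at 5.18 and 5.30 RPKM (181 and 196 reads), lay below both control libraries, at 7.75 and 7.36 RPKM (251 and 216 reads). The log2 difference was -0.52 in limma (95% interval -0.72 to -0.32, adjusted p = 0.0488). The call was kept in 1 of 18 alternative fits, with adjusted p from 0.0429 to 0.268, and the value stood between -0.56 and -0.46 in all of them. Without each library in turn the call was lost, at log2 differences of -0.56 to -0.48. In stimulated cells Pgk1 stood at 19.5 and 22.9 RPKM in Cd and 19.3 and 19.7 RPKM in control offspring, which overlapped (0.11, interval -0.09 to 0.31).

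Tpi1 and Pgk1, 2 of the 10 genes, had an unadjusted p under 0.05 in unstimulated cells, beside 13.9% of all genes tested. For Tpi1 the log2 difference was -0.19 (95% interval -0.34 to -0.04, adjusted p = 0.2797). The other 8 genes lay between -0.17 (Slc2a1) and 0.08 (Ldha). The Cd and control libraries did not overlap for 4 of the 10 genes, Slc2a3, Tpi1, Pgk1 and Pkm, all lower in Cd, beside 42.3% of all genes tested in either direction and 20.0% lower. The 10 genes' median log2 difference was -0.10, against 0.0065 over all genes tested.

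In stimulated cells 0 of the 10 genes were called, and 0 had an unadjusted p under 0.05, beside 0% and 3.28% of all genes tested. In limma voom on the recovered reads 0 were called as well, beside 0 of all 12605 genes tested. The log2 differences ran from -0.11 (Hk2, 95% interval -0.66 to 0.45) to 0.11 (Pgk1). The narrowest interval was that of Pkm, at -0.0046 (-0.11 to 0.10), and the intervals of the 8 genes other than Slc2a1 and Hk2 all lay within -0.21 to 0.31. The libraries did not overlap for 3 genes, Slc2a3, Hk2 and Ldha, all lower in Cd, beside 36.7% of all genes tested in either direction and 20.6% lower. The median was -0.052, against -0.0090 over all genes.

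**Figure D5:**
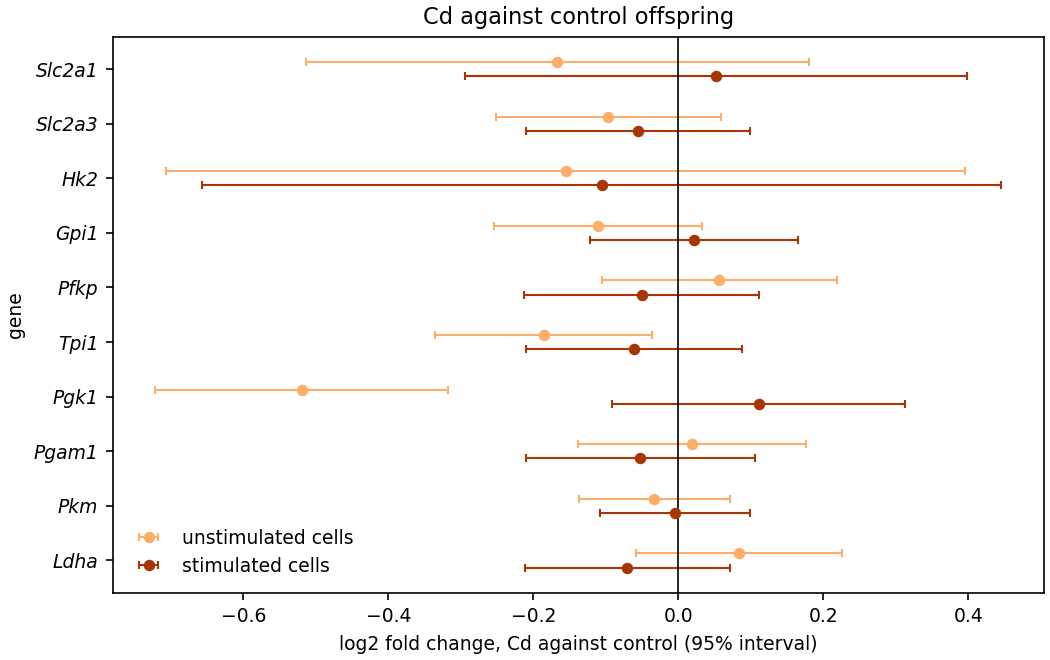
Log2 difference between Cd and control offspring for the 10 genes, in unstimulated (light) and stimulated (dark) cells, with the 95% interval from limma. Pgk1 in unstimulated cells lies at -0.52 with an interval of -0.72 to -0.32; that of Tpi1 in unstimulated cells is the only other interval that leaves out 0.

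The difference in response, the change with stimulation in Cd minus that in control offspring, was tested as an interaction. In limma 0 of the 10 genes passed an adjusted p under 0.05, beside 0.357% of all genes tested. Pgk1 had the largest value, 0.63 (SE 0.12, 95% interval 0.35 to 0.92, adjusted p = 0.136), and it was the 1 gene of 10 with an unadjusted p under 0.05, beside 10.6% of all genes. Limma voom on the recovered reads also called 0 of the 10 genes, beside 101 higher and 10 lower of all 12605 genes tested. The other 9 lay between -0.15 (Ldha) and 0.22 (Slc2a1). This contrast shares its libraries with the comparisons above. For Hk2 the difference was 0.050 with an interval of -0.73 to 0.83, the widest of the 10. Of all the marker lists, 1 gene was called in Cd against control unstimulated cells, beside 0.896% of all genes tested. The markers tested were 10 of T cells, 5 of regulatory T cells, 1 of CD8 T cells and 4 of NK cells. Those of B cells, myeloid cells and erythroid cells were 2, 2 and 1. The gene called was Tnfrsf18, which encodes GITR, of the 5 regulatory T cell markers. It stood at 27.6 and 27.4 against 33.6 and 33.1 RPKM (-0.28, adjusted p = 0.0364 in limma). Its difference in response was not called (0.26, adjusted p = 0.180 in limma). Alternative fits are not given here for Tnfrsf18. Over all genes, calls for Cd in unstimulated cells depended on the fit, with 17 higher and 96 lower in the main fit and 2 and 12 with no trend.

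Across the 8 libraries, the mean profile of the 10 genes (each centred on its mean log2 level) was matched with those of the 8577 genes at 5 RPKM or more that are in no list. The profile includes Hk2, which had the largest change of the 10 genes and had to differ, and no profile without Hk2 was matched. The 5 most alike were Ergic1, Cish, Rcl1, Gart and Nhp2, at Pearson's r of 0.9997 to 0.9995. The libraries share their stimulation state, and 896 of the 8577 genes had an r over 0.99. Gart, an enzyme of purine synthesis, rose from 31.2 to 87.8 RPKM in control offspring, and Cish, an inhibitor of cytokine signalling, from 9.26 to 109 RPKM. Each of the 10 genes is itself part of the mean profile. Pkm followed it at an r of 0.999 and Slc2a3 at -0.980, while Slc2a1 did at -0.197.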

How the data were processed

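RNA was sequenced from 8 libraries. Per the authors, Subread aligned the reads to mm10 and featureCounts assigned them to RefSeq genes; versions, strand setting and the handling of reads with several matches are not given in the sources used here. The deposited log2 values were found to be log2(RPKM + 1) + 0.0001 and were turned back into RPKM. Reads, lengths and library totals were solved from the spacing of low values, for 17794 genes. The 12605 genes that averaged 0.5 RPKM or more were fitted in limma 3.58.1 (R 4.3.3) as log2(RPKM + 0.1) with 4 group means, empirical Bayes with trend and Benjamini-Hochberg adjustment, leaving 4 residual degrees of freedom. A call for stimulation needed more than 2-fold with an adjusted p under 0.01, and one for Cd or the interaction an adjusted p under 0.05. With 2 libraries against 2, an exact permutation test cannot go below p = 0.333. The fit was tested on simulated data in which genes changed with stimulation alone. Symbols and positions came from RefSeq (25275 identifiers matched), and copies were sought with blastn 2.17.0. Genes named are the 10 genes, those that complete the pathway or its isoenzyme families (Hk1, Hk3, Pfkl, Pfkm, Aldoa, Aldoc, Gapdh, Eno1, Eno2 and Ldhb), Txnip, Hif1a and Myc, up to 3 called rises and 3 falls per list at a mean of 5 RPKM or more, list genes called for Cd, and the 5 most alike. The genes and lists were chosen with earlier results of these data known. Alternatives were other pseudocounts, filters, scalings, blocks, libraries left out, no trend, voom on recovered reads and, added after seeing the data, the count without Hk2. The value of 1 marker gene is not reported here. Tables and plots used Python 3.11.15, numpy 2.4.6, pandas 2.3.3 and matplotlib 3.10.9.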

Additional observations from a re-analysis of the deposited data

How the results depend on the processing

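Of the 190 values of the 10 genes under alternatives for stimulation in control offspring, 190 kept their direction and their side of the call with more than 2-fold, and 5 genes were called under each of these alternatives. In Cd offspring 184 of 190 did; 4 genes instead of 5 were called with median-of-ratios scaling and without unstimulated Cd replicate 6, where Ldha was 0.99 and 0.98. In unstimulated cells the count of genes called for Cd went from 1 to 0 in 17 of 18 alternatives: pseudocounts of 0.5 and 1 (Pgk1 at -0.49 and -0.46), no filter, median-of-ratios and quantile scaling, the replicate block, no trend, only the libraries of the comparison, voom, and every fit without 1 library (range 0 to 0). The cause was not tested. The count for Cd in stimulated cells and for the difference in response stayed at 0. Values not called that changed sign were Slc2a1 with stimulation in Cd offspring (-0.016 with median-of-ratios and -0.076 with quantile scaling, -0.15 to 0.24 without 1 library); Pkm for Cd in unstimulated cells (0.013 with quantile scaling) and in stimulated cells (0.0048 with median-of-ratios and 0.025 with quantile scaling, -0.027 to 0.018 without 1 library); and the difference in response of Hk2 (-0.032 and -0.057 with pseudocounts of 0.5 and 1, -0.26 to 0.36 without 1 library). Without 1 library the others ran, for Cd in unstimulated cells, from -0.36 to 0.027 for Slc2a1, -0.46 to 0.15 for Hk2, -0.015 to 0.13 for Pfkp and -0.039 to 0.077 for Pgam1. For Cd in stimulated cells they ran from -0.074 to 0.18 for Slc2a1, -0.0093 to 0.053 for Gpi1, -0.13 to 0.025 for Pfkp, -0.0041 to 0.23 for Pgk1 and -0.11 to 0.0013 for Pgam1, and for the difference in response of Slc2a3 from -8.9e-04 to 0.082. The summed level was 518, 971 and 508 RPKM with median-of-ratios scaling in unstimulated and stimulated control and unstimulated Cd cells. Quantile scaling moved the median of all genes with stimulation in control offspring from 0.070 to -0.033. The numbers were not taken as pairs, since the sources used here do not say that same-numbered libraries came from 1 animal. Deviations of same-numbered libraries correlated at 0.0635 in control and 0.00851 in Cd offspring, which cannot show whether they did. With the replicate block by number the counts were 5, 5, 0, 0 and 0, against 5, 5, 1, 0 and 0 without it. A fit without 1 library assumes that the lone library left in its group varies like the others. The 95% intervals give the differences between Cd and control offspring that are compatible with these values. They are not adjusted for the number of genes, and their spread is estimated over all 4 groups.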
